A study of Oryza sativa with 36 samples.

Results

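The 18 rice bZIP transcription factor genes described here were found by name, as genes whose symbol or alias is bZIP followed by a number, with or without the prefix Os. The gene table lists 19 such genes, and 18 have a probe set tied to no other gene, of 17905 genes with such a probe set and 57194 probe sets in all. OsbZIP19 has no probe set of its own there and was not analysed here. The 18 genes are covered by 19 probe sets. OsbZIP11 has 2, and the brighter over all arrays was used. By number or alias, 11 members belong to the TGA class, 3 to the endoplasmic reticulum stress factors, and 1, OsbZIP23, to the abscisic acid response. The remaining 3 members were OsbZIP02, OsbZIP06 and OsbZIP52. Members of the family that the gene table does not list under a bZIP number are not included.

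Leaf and root RNA of the hybrid LYP9 was hybridised to Affymetrix arrays for rice beside that of 9311 and PA64s, which from background knowledge are its parents. Each genotype was sampled in a nutrient-sufficient state, also labelled heterotic, and a nutrient-deficient state, also labelled non-heterotic, with 3 arrays for each of the 12 groups. All seedlings were first kept for 5 days in a nutrient soil mix and then grown in barrels of raw soil with little organic nutrient, 15 seedlings of each variety in each of 12 barrels. When the seedlings were 14 days old, 6 barrels received 10 g urea and 10 g compound fertiliser, and these are the nutrient-sufficient groups; the remaining barrels are the nutrient-deficient groups. The labels do not say whether the 3 arrays of a group came from separate barrels or plants, and p-values therefore cover only the spread seen between these samples, which may be technical. Per the series description, the study looked for expression differences tied to the onset of heterosis, the greater vigour of a hybrid, in early vegetative growth.

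bZIP proteins bind DNA as dimers through a basic region next to a leucine zipper, and choice of partner is part of how they are controlled. TGA factors bind the TGACG element and act with NPR1-type co-activators in salicylic acid defence signalling, abscisic acid bZIPs are phosphorylated by SAPK kinases and bind abscisic acid response elements of dehydrin genes, and the endoplasmic reticulum factors are released or spliced when unfolded proteins build up. OsbZIP49 is a TGA-like member reported in rice to activate genes for some GH3 enzymes that couple auxin to amino acids, and to affect tiller angle. Several members are known mainly by sequence, and no role is given for them below.

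Leaf and root labels matched their marker genes. The 6 measured leaf markers, light harvesting, photosystem, Rubisco and protochlorophyllide reductase genes, had a mean log2 value of 12.10 to 13.23 in leaf groups, against 5.90 to 6.68 in root groups. The 6 root markers, for nicotianamine synthesis, iron and phosphate uptake and a root aquaporin, had a mean of 5.39 to 5.87 in leaf groups, against 9.72 to 11.63 in root groups. No array stood apart: correlations between arrays of a group ran from 0.9735 to 0.9894, and array medians from 65.98 to 75.39 intensity units. No member value was at the floor of the table. In whole tissue, fewer cells of a type and less RNA per cell cannot be told apart.

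Values below are log2 array intensities, and differences are log2 differences with the standard error of the limma fit. A level on this array depends on the probe set, so levels of different genes are given to show where each sits on the scale and not as amounts of RNA. Tests covered 34316 probe sets, those whose mean value was among the highest 60%, above 5.753 in leaf and 5.703 in root. A difference is called where its p, adjusted by Benjamini-Hochberg across those probe sets, is below 0.05. In root all 18 members passed that level. In leaf 15 passed, and OsbZIP06, OsbZIP79 and OsbZIP11, with leaf means of 4.10, 5.00 and 5.17, did not.

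In leaf the highest members were OsbZIP39, a membrane-bound stress factor of the endoplasmic reticulum, at a mean of 9.89 over 18 arrays, and the TGA factors OsbZIP63 (TGA2.1) at 9.75 and OsbZIP28 (TGA2.2) at 9.46. In root they were OsbZIP37 (TGAL6) at 10.70, OsbZIP39 at 9.96 and OsbZIP28 at 9.65. The lowest in root were OsbZIP41 (TGAL5) at 7.18, OsbZIP49 (TGAL8) at 7.43 and OsbZIP02 at 7.87. The 3 members lowest in leaf were not the 3 lowest in root. OsbZIP79 (TGAL4), a factor that regulates diterpenoid phytoalexin genes in rice, averaged 5.00 in leaf and 9.27 in root. The SD between arrays of a group, pooled over the groups of a tissue, had a median over members of 0.210 in leaf and 0.257 in root. It was largest for OsbZIP08 (TGAL1) in leaf, at 0.382, and for OsbZIP41 in root, at 0.642.

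**Figure D1:**
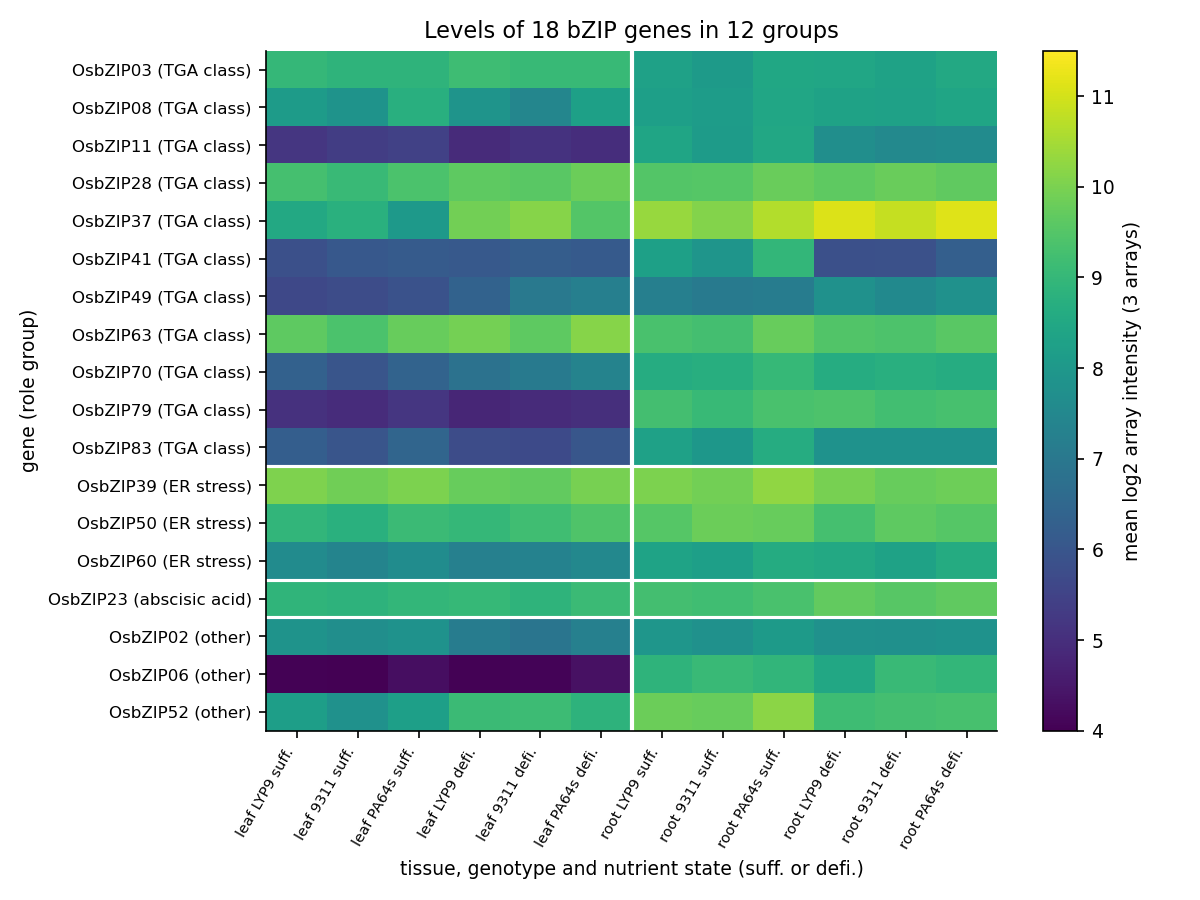
Mean log2 array intensity (colour) of the 18 bZIP genes (down the page, by role) in the 12 groups of 3 arrays, leaf groups left of root groups, with suff. for nutrient-sufficient and defi. for nutrient-deficient. OsbZIP06, OsbZIP11 and OsbZIP79 are dark in leaf, with leaf means from 4.10 to 5.17, and OsbZIP37 is brightest in root.

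Most members differed between the tissues. In the fit over all 36 arrays, leaf against root, 2 members were called higher in leaf and 15 lower, where 43.9% of all probe sets were higher and 37.5% lower. OsbZIP06, OsbZIP11 and OsbZIP79 passed the filter only through their root level and so had to differ. Their differences were -4.80 ± 0.12, -2.81 ± 0.10 and -4.27 ± 0.06, and they support nothing here. Of the other 15 members, 2 were higher in leaf and 12 lower, with a median difference of -0.52, against 0.06 over all probe sets tested.

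Among those 15, OsbZIP70 (TGAL7) was lower in leaf by -2.07 ± 0.09 (limma, adjusted p = 1.71e-19), and OsbZIP83 (TGAL11) by -2.05 ± 0.08 (limma, adjusted p = 3.13e-20). OsbZIP37 was lower in leaf by -1.54 ± 0.09 and OsbZIP49 by -1.11 ± 0.09. The members higher in leaf were both TGA factors, OsbZIP03 (TGA2.3) by 0.64 ± 0.05 and OsbZIP63 by 0.28 ± 0.06. The call of OsbZIP63 ended under quantile normalization, at 0.10 (limma, adjusted p = 0.137). Of the 3 stress factors of the endoplasmic reticulum, OsbZIP60 was lower in leaf by -0.99 ± 0.05 and OsbZIP50, whose messenger RNA is spliced by the sensor IRE1, by -0.52 ± 0.09, and OsbZIP39 was not called at -0.07 ± 0.06. The alias bZIP60 is listed for both OsbZIP50 (LOC4341554) and OsbZIP60 (LOC4344086), which are named here by the alias with the prefix Os. OsbZIP23, which acts in abscisic acid signalling and drought tolerance, was lower in leaf by -0.50 ± 0.07.

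The next question was how fertiliser changed the bZIP genes of each genotype. In leaf, OsbZIP37 and OsbZIP49 fell and OsbZIP02 rose with fertiliser in all 3 genotypes. OsbZIP52 (RISBZ5), reported in rice to reduce tolerance of cold and drought, and OsbZIP70 fell in some of them. In LYP9 leaves 1 member of the 15 tested was called higher and 3 lower, where 6.2% of all probe sets were higher and 2.65% lower. In 9311 leaves 1 was higher and 5 lower, where 7.96% and 3.97% of all probe sets were. In PA64s leaves 1 was higher and 4 lower, where 5.01% and 2.72% of all probe sets were. The median over the tested members, averaged over genotypes, was -0.17, and it was 0.07 over all probe sets. The average over the 3 genotypes was added after the data were seen.

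OsbZIP37 in LYP9 leaves read 8.92, 8.53 and 8.14 in the sufficient state, against 10.02, 9.78 and 9.89 in the deficient state. In 9311 leaves it read 8.77, 9.01 and 8.54 in the sufficient state, against 10.42, 9.99 and 9.99 in the deficient state. In PA64s leaves the values were 7.81, 8.20 and 8.20 in the sufficient state, against 9.06, 9.66 and 9.79 in the deficient state. The states did not overlap in any genotype. The difference was -1.36 ± 0.22 in LYP9 (limma, adjusted p = 0.00149), -1.36 ± 0.22 in 9311 (limma, adjusted p = 0.00102) and -1.44 ± 0.22 in PA64s (limma, adjusted p = 0.00116). Its probe set has a name of the kind that may also bind related transcripts.

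OsbZIP49 in LYP9 leaves read 5.77, 5.42 and 5.65 in the sufficient state, against 6.52, 6.22 and 6.39 in the deficient state. In 9311 leaves it read 5.57, 5.99 and 5.70 in the sufficient state, against 7.11, 6.92 and 7.07 in the deficient state. In PA64s leaves it read 5.75, 6.04 and 5.83 in the sufficient state, against 7.44, 7.34 and 6.98 in the deficient state. Every sufficient array was below every deficient array of its genotype. The difference was -0.76 ± 0.15 in LYP9 (limma, adjusted p = 0.0055), -1.28 ± 0.15 in 9311 (limma, adjusted p = 9.53e-05) and -1.37 ± 0.15 in PA64s (limma, adjusted p = 8.09e-05). The sufficient levels lay near the filter level of 5.753, where background light can make up part of the intensity, so these are given as log2 differences and not as folds.

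OsbZIP70 in 9311 leaves read 5.77, 6.29 and 5.86 in the sufficient state, against 7.17, 7.07 and 6.98 in the deficient state, a difference of -1.11 ± 0.17 (limma, adjusted p = 0.000926). In PA64s leaves it read 6.32, 6.58 and 6.27, against 7.36, 7.25 and 7.45, a difference of -0.96 ± 0.17 (limma, adjusted p = 0.00373). In LYP9 leaves it read 6.58, 6.42 and 5.95, against 6.92, 6.57 and 6.99, and these overlapped, with a difference of -0.51 ± 0.17 that was not called (limma, adjusted p = 0.0789). The difference between genotypes in this response was itself not called, LYP9 minus 9311 being 0.59 ± 0.25 (limma, adjusted p = 1).

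OsbZIP52 in LYP9 leaves read 8.70, 8.02 and 7.90 in the sufficient state, against 9.29, 8.88 and 9.13 in the deficient state. In 9311 leaves it read 7.94, 7.83 and 7.58, against 9.27, 9.06 and 9.12, and in PA64s leaves 8.45, 8.16 and 8.12, against 9.21, 9.04 and 8.27. Only the PA64s states overlapped, through 1 deficient array at 8.27. The difference was -1.36 ± 0.23 in 9311 (limma, adjusted p = 0.00159) and -0.89 ± 0.23 in LYP9 (limma, adjusted p = 0.026). In PA64s it was -0.59 ± 0.23 and not called (limma, adjusted p = 0.128). The LYP9 call was lost on leaving out any of 4 single arrays: LYP9 sufficient 2 or 3, or LYP9 deficient 1 or 3.

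OsbZIP02 was the member that rose. In LYP9 leaves it read 7.91, 7.91 and 7.71 in the sufficient state, against 7.19, 7.33 and 6.94 in the deficient state. In 9311 leaves it read 7.81, 7.61 and 7.71, against 6.87, 7.09 and 6.80. In PA64s leaves it read 7.96, 7.86 and 7.65, against 7.53, 7.18 and 7.09. The states were apart in every genotype, by 0.69 ± 0.14 in LYP9 (limma, adjusted p = 0.00762), 0.79 ± 0.14 in 9311 (limma, adjusted p = 0.00239) and 0.56 ± 0.14 in PA64s (limma, adjusted p = 0.0256). The PA64s call was lost in the fit over all 36 arrays, with an adjusted p of 0.0999, and on leaving out PA64s sufficient 1 or 2 or PA64s deficient 2 or 3.

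Averaged over the 3 genotypes, 2 members were called higher and 7 lower in sufficient leaves, where 24.4% of all probe sets were higher and 13.5% lower. Of the 9 TGA class members tested, 1 was higher and 5 were lower. Besides OsbZIP37 (-1.39 ± 0.13), OsbZIP49 (-1.14 ± 0.09), OsbZIP52 (-0.95 ± 0.13) and OsbZIP70 (-0.86 ± 0.10), the falls were those of OsbZIP28 at -0.44 ± 0.06, OsbZIP63 at -0.31 ± 0.09 and OsbZIP50 at -0.28 ± 0.10. The call of OsbZIP50 was lost in 14 of 25 alternatives: without the filter, in the fit over all 36 arrays, and on leaving out any of 12 single arrays, 4 of each genotype. OsbZIP02 rose by 0.68 ± 0.08 and OsbZIP83 by 0.41 ± 0.09. OsbZIP28, a partner of the rice co-activator NH1, was also called in single genotypes, at -0.51 ± 0.11 in 9311 (limma, adjusted p = 0.00548) and -0.44 ± 0.11 in PA64s (limma, adjusted p = 0.0186), and the PA64s call was lost without PA64s sufficient 1 or 3 or PA64s deficient 1 or 2. In LYP9 it was -0.35 ± 0.11 (limma, adjusted p = 0.0502). Its states did not overlap in any genotype, with 9.21 to 9.41 in sufficient LYP9 leaves against 9.54 to 9.75 in deficient ones. OsbZIP23 and the membrane-bound factors OsbZIP39 and OsbZIP60 were not called in leaf in any genotype.

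Among markers, 4 of 6 leaf markers were higher in sufficient leaves, the largest being protochlorophyllide reductase PORA at 2.80 ± 0.17, and 2 of 4 root markers that passed the leaf filter were higher too. The mean of the leaf markers ran from 13.02 to 13.23 over sufficient leaf groups, against 12.10 to 12.63 over deficient ones. That of the root markers ran from 5.72 to 5.87 over sufficient leaf groups, against 5.39 to 5.75 over deficient ones. The part of these shifts in the bZIP differences was not tested.

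**Figure D2:**
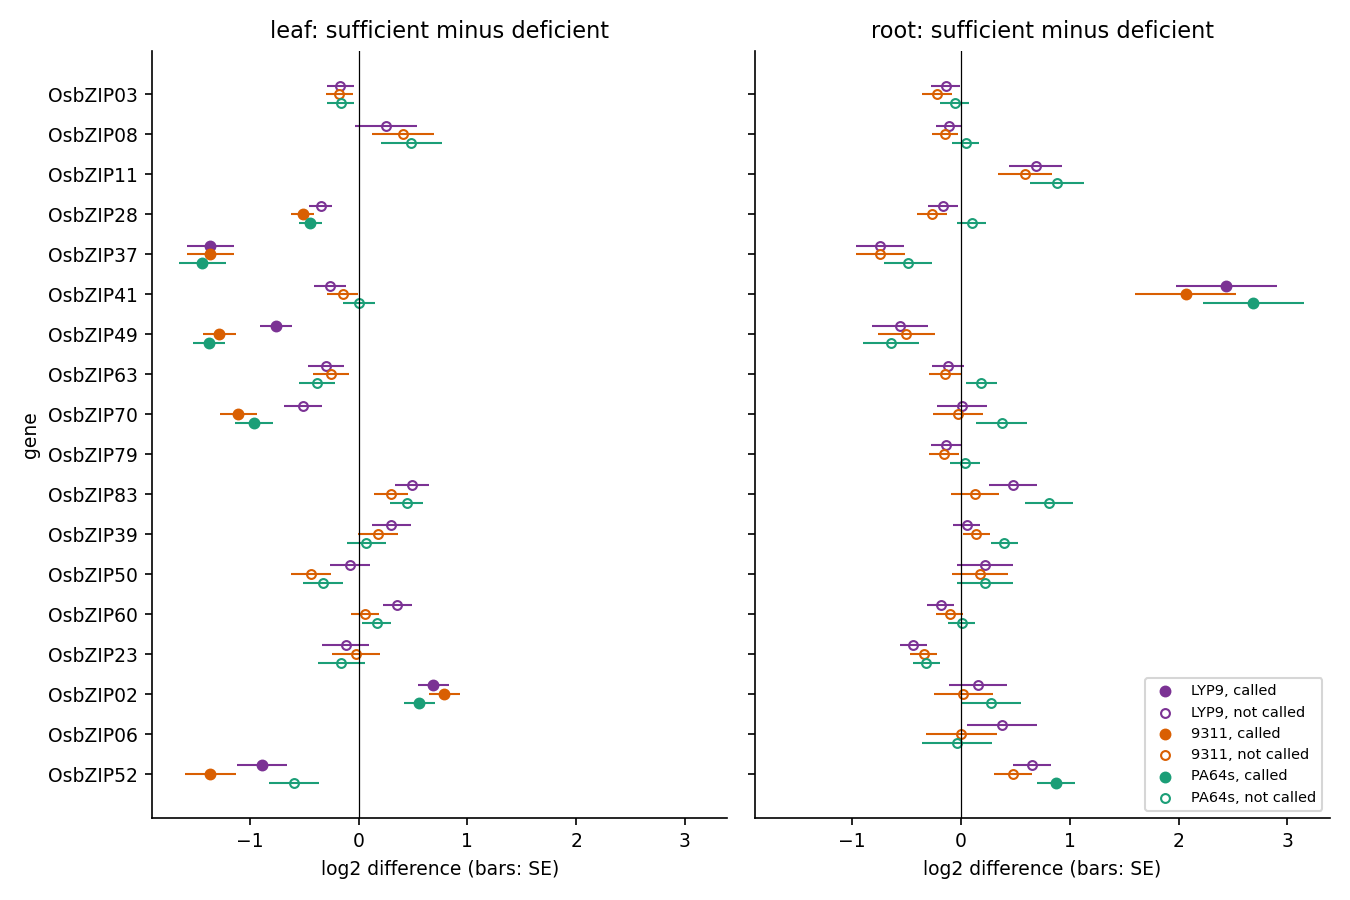
Nutrient-sufficient minus nutrient-deficient log2 difference (horizontal axis, bars are the standard error of the limma fit) of each bZIP gene (down the page) in leaf (left) and root (right), for LYP9, 9311 and PA64s, filled where called. OsbZIP37 and OsbZIP49 lie left of 0 in leaf in all 3 genotypes, and OsbZIP41 lies between 2.07 and 2.69 in root; genes below the leaf filter have no leaf point.

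In root the change seen in all 3 genotypes was a rise of OsbZIP41. It was the 1 member of 18 called higher in LYP9 roots, where 2.1% of all probe sets were, and in 9311 roots, where 3.25% were. In PA64s roots 2 members, OsbZIP41 and OsbZIP52, were called higher, where 1.74% of all probe sets were. No member was called lower by limma in a single genotype, where 1.36% of all probe sets were in LYP9, 2.64% in 9311 and 1.59% in PA64s. At an unadjusted p under 0.05, in either direction, there were 7 members in LYP9, 5 in 9311 and 8 in PA64s. The share of all probe sets at that threshold was not counted, so nothing is read from these counts.

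OsbZIP41 in LYP9 roots read 7.25, 7.85 and 9.71 in the sufficient state, against 5.42, 6.33 and 5.75 in the deficient state. In 9311 roots it read 7.37, 7.96 and 8.41, against 5.37, 6.19 and 5.98. In PA64s roots it read 8.55, 8.99 and 9.33, against 6.32, 6.21 and 6.28. Every sufficient array was above every deficient root array, and the LYP9 sufficient arrays spread the most, with an SD of 1.28. The difference was 2.44 ± 0.46 in LYP9 (limma, adjusted p = 0.00891), 2.07 ± 0.46 in 9311 (limma, adjusted p = 0.0193) and 2.69 ± 0.46 in PA64s (limma, adjusted p = 0.00404). The deficient levels were near the filter level, so no fold is given. The LYP9 call was lost without LYP9 deficient array 1 (adjusted p = 0.0602), and the 9311 call without 9311 sufficient 2 or 9311 deficient 1 or 3 (adjusted p up to 0.0957). In leaf OsbZIP41 ranged only from 5.60 to 6.35 over all 18 arrays and was called for neither nutrient state in any genotype.

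OsbZIP52 in PA64s roots read 10.29, 10.14 and 10.17 in the sufficient state, against 9.45, 9.15 and 9.37 in the deficient state, a rise of 0.88 ± 0.18 (limma, adjusted p = 0.0114) that was lost without PA64s deficient array 2. In LYP9 roots it read 9.72, 9.69 and 10.05, against 9.43, 8.88 and 9.20. In 9311 roots it read 9.77, 9.95 and 9.53, against 9.03, 9.13 and 9.65. The LYP9 arrays were also apart and the 9311 arrays overlapped, and neither difference was called.

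Averaged over genotypes, 4 members were called higher and 3 lower in sufficient roots, where 10.1% of all probe sets were higher and 7.76% lower. OsbZIP41 rose by 2.40 ± 0.27 (limma, adjusted p = 1.81e-05). OsbZIP11, named for liguleless2, which the maize leaf needs to form its ligule, rose by 0.72 ± 0.14, and its other probe set gave 0.66 ± 0.15 (limma, adjusted p = 0.00507). OsbZIP52 rose by 0.67 ± 0.10 and OsbZIP83 by 0.47 ± 0.13. OsbZIP37 fell by 0.66 on the log2 scale (SE 0.13), OsbZIP49 by 0.57 (SE 0.15) and OsbZIP23 by 0.37 (SE 0.07).

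Of these, OsbZIP23 ranged from 9.16 to 9.49 with a median of 9.27 over 9 sufficient root arrays, against 9.44 to 9.83 with a median of 9.69 over 9 deficient root arrays. The ranges overlapped at their ends. OsbZIP49 read 7.30, 7.30 and 7.09 in sufficient LYP9 roots, against 7.92, 8.04 and 7.41 in deficient ones, 6.88, 6.79 and 7.47 against 7.90, 7.87 and 6.88 in 9311 roots, and 7.17, 7.42 and 6.86 against 7.53, 7.88 and 7.96 in PA64s roots. The 9311 arrays overlapped, with 1 deficient array at 6.88, and OsbZIP49 was not called in root in any single genotype.

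In root, 3 of 6 root markers were higher in the sufficient state, among them the nicotianamine synthase gene NAS1 at 2.73 ± 0.30, and 1 was lower. Of 4 leaf markers that passed the root filter, 1 was lower. The mean of the root markers ran from 11.24 to 11.63 over sufficient root groups, against 9.72 to 10.37 over deficient ones. That of the leaf markers ran from 5.90 to 6.68 over sufficient root groups, against 6.04 to 6.41 over deficient ones. Their part in the bZIP differences was not tested.

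**Figure D3:**
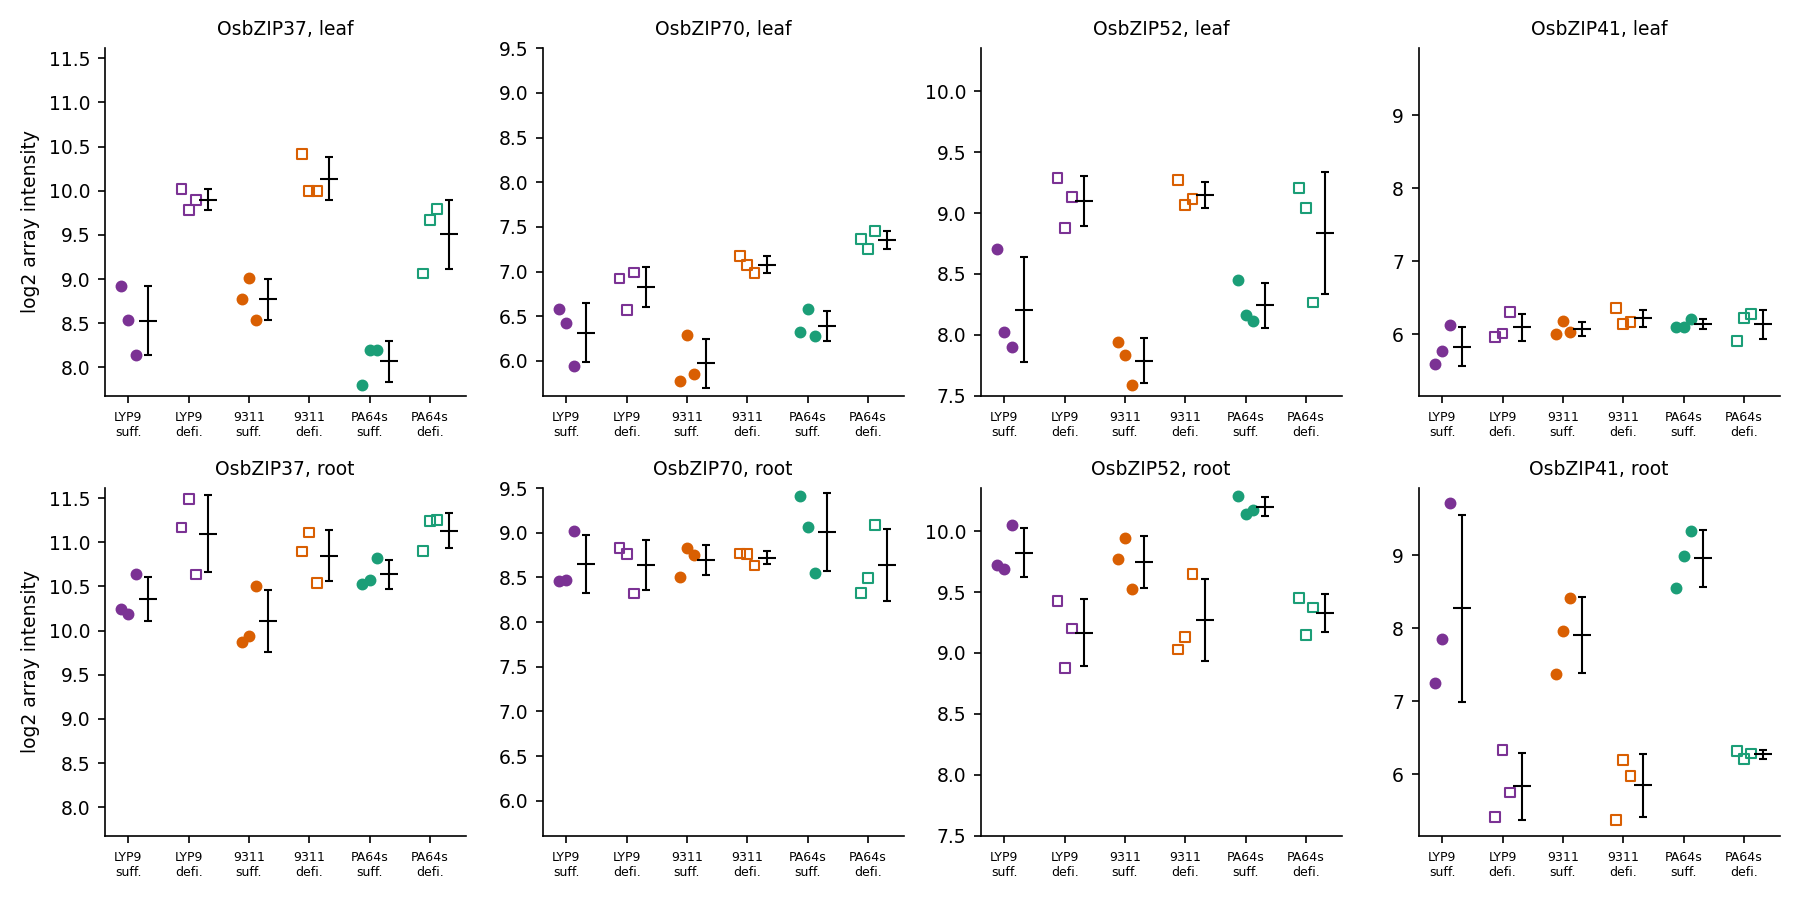
Log2 array intensity of OsbZIP37, OsbZIP70, OsbZIP52 and OsbZIP41 in leaf (top) and root (bottom), 1 point per array, filled for nutrient-sufficient and open for nutrient-deficient, with the mean and SD of 3 arrays beside each group. OsbZIP41 stays between 5.60 and 6.35 in leaf and reaches 9.71 in sufficient LYP9 roots, and OsbZIP52 is lower in sufficient leaves and higher in sufficient roots.

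The responses of leaf and root were compared within the fit over all 36 arrays. The nutrient response, averaged over genotypes, differed between leaf and root for 8 of 18 members, 2 with a higher response in leaf and 6 with a lower one, where 12.4% and 6.38% of all probe sets were. OsbZIP52 moved in opposite directions, -0.95 ± 0.13 in leaf and 0.67 ± 0.10 in root, a difference of -1.62 ± 0.17 (limma, adjusted p = 1.44e-07). OsbZIP41 differed by -2.53 ± 0.29 (limma, adjusted p = 4.9e-07), with the response in root. OsbZIP70 fell in leaf, was not called in root, and differed by -0.98 ± 0.17 (limma, adjusted p = 0.000155). OsbZIP37 and OsbZIP49 fell in both tissues and further in leaf, by -0.73 ± 0.18 (limma, adjusted p = 0.00576) and -0.57 ± 0.18 (limma, adjusted p = 0.0238). OsbZIP28 differed by -0.32 ± 0.10 (limma, adjusted p = 0.0164). The higher responses in leaf, of OsbZIP02 by 0.53 ± 0.18 and OsbZIP60 by 0.29 ± 0.10, were lost in 23 and 27 of 42 alternatives, quantile normalization and median centring among them.

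No member was called for a nutrient response that differed between genotypes in either tissue (limma). In leaf 1 member had an unadjusted p under 0.05 for 9311 against PA64s, 2 for LYP9 against 9311 and 1 for LYP9 against PA64s, and in root 1, 0 and 0 members did. At the adjusted threshold 0.0175%, 0.00291% and 0% of all probe sets were called in leaf in the same order, and 0.00874%, 0% and 0% in root. The share of all probe sets at an unadjusted p was not counted.

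The parents were compared next, averaged over both states. In leaf, OsbZIP37 was higher in 9311 than in PA64s, and 4 TGA members, OsbZIP08, OsbZIP63, OsbZIP83 and OsbZIP28, were lower, where 5.43% of all probe sets were higher and 6.44% lower. In root none was higher and 2, OsbZIP60 and OsbZIP63, were lower, where 6.15% and 7.19% of all probe sets were. Differences were below 0 for 13 of 15 members tested in leaf and 16 of 18 in root, called or not. The share of all probe sets below 0 was not counted, so nothing is read from these counts of signs. The medians of the differences were -0.23 in leaf and -0.20 in root, against 0.03 and 0.05 over all probe sets.

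OsbZIP08 in leaf ran from 7.15 to 7.99 with a median of 7.60 over 6 arrays of 9311, against 7.96 to 9.02 with a median of 8.42 over 6 arrays of PA64s. The ranges overlapped at one end, and the difference was -0.86 ± 0.20 (limma, adjusted p = 0.00778). OsbZIP63 in leaf ran from 9.15 to 9.82 with a median of 9.52 in 9311, against 9.64 to 10.29 with a median of 9.88 in PA64s, a difference of -0.45 ± 0.12 (limma, adjusted p = 0.017). OsbZIP83 differed by -0.39 ± 0.11 (limma, adjusted p = 0.0306) and OsbZIP28 by -0.25 ± 0.07 (limma, adjusted p = 0.0384). These last calls were less stable: OsbZIP83 was lost in 6 of 25 alternatives and OsbZIP28 in 12. The count of 5 dropped to 3 without 9311 sufficient array 3, 9311 deficient array 2 or PA64s deficient array 2.

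OsbZIP37 in leaf ran from 8.54 to 10.42 over 6 arrays of 9311, against 7.81 to 9.79 over 6 arrays of PA64s. Both ranges take in the nutrient response, and the difference over both states was 0.67 ± 0.15 (limma, adjusted p = 0.00742). In root it ran from 9.87 to 11.11 in 9311, against 10.52 to 11.25 in PA64s, and was not called there. The parental difference itself differed between leaf and root by 1.07 ± 0.23 (limma, adjusted p = 0.00253), the 1 member called in that comparison, where 5.13% of all probe sets were. That call held under all 42 alternatives.

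OsbZIP60 in root ran from 8.08 to 8.48 in 9311, against 8.36 to 8.78 in PA64s, with a difference of -0.34 ± 0.09 (limma, adjusted p = 0.018). OsbZIP63 in root differed by -0.35 ± 0.10 (limma, adjusted p = 0.0334), and was lost on leaving out any of 8 single arrays. The OsbZIP60 call was lost without 9311 deficient array 1 or PA64s deficient array 2, and both calls were lost without either of these. Leaving out other single arrays moved the root count of 2 to between 1 and 4. Beside these differences, PORA was higher in 9311 leaves by 0.94 ± 0.21, the 1 leaf marker of 6 called, and in root 2 leaf markers were higher and 1 root marker lower in 9311. Their part in the bZIP differences was not tested.

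The hybrid was set against its parents last. The mid-parent is the mean of both parents on the log2 scale. OsbZIP49 was taken up because its hybrid level was already known to lie apart, so its hybrid values are a description with no test. In deficient leaves it averaged 6.37 ± 0.15 in LYP9, 7.03 ± 0.10 in 9311 and 7.25 ± 0.24 in PA64s (SD, n = 3 each). The LYP9 arrays, 6.22 to 6.52, lay below those of 9311, 6.92 to 7.11, and those of PA64s, 6.98 to 7.44. LYP9 minus the mid-parent was -0.77 ± 0.13 in that state, with -0.66 ± 0.15 against 9311 and -0.88 ± 0.15 against PA64s. The mean of the leaf markers in deficient leaves was 12.63 in LYP9, 12.42 in 9311 and 12.10 in PA64s. None of the 6 was called against the mid-parent, and PORA was called higher in LYP9 than in PA64s, by 1.55 ± 0.30. The part of these marker levels in the OsbZIP49 difference was not tested.

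In sufficient leaves OsbZIP49 averaged 5.61 ± 0.18 in LYP9, 5.75 ± 0.21 in 9311 and 5.88 ± 0.15 in PA64s (SD, n = 3 each), and the arrays overlapped. LYP9 minus the mid-parent was -0.20 ± 0.13 there. In roots LYP9 was not below its parents: sufficient roots averaged 7.23 ± 0.12 in LYP9, 7.05 ± 0.36 in 9311 and 7.15 ± 0.28 in PA64s, and deficient roots 7.79 ± 0.34, 7.55 ± 0.58 and 7.79 ± 0.23 in the same order of genotypes (SD, n = 3 each). Over both states LYP9 minus the mid-parent was -0.49 ± 0.09 in leaf and 0.12 ± 0.16 in root. This deviation differed between leaf and root by -0.61 ± 0.19. Between sufficient and deficient leaves it differed by 0.57 ± 0.18. Neither of these differences was called by limma. The order of the 12 means ran from sufficient leaves, through deficient leaves of LYP9, to a band of all 6 root groups and the deficient leaves of both parents. Within the sufficient leaves and within that band, neighbours in the order differed by no more than the larger of their SDs.

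**Figure D4:**
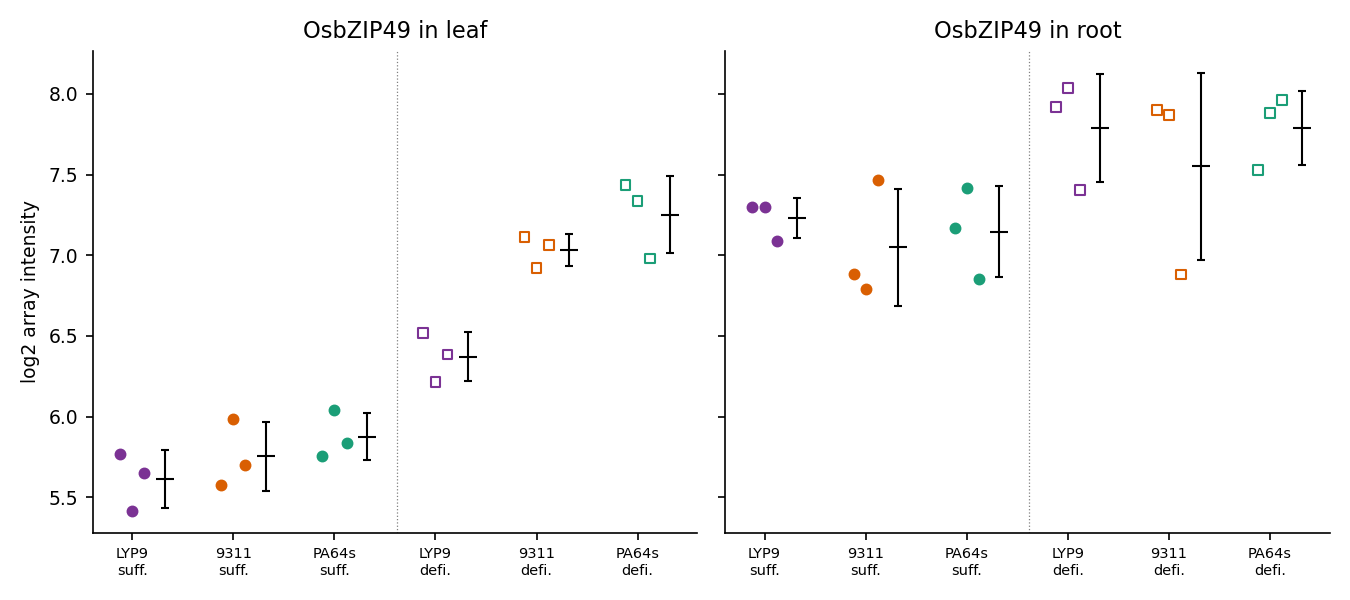
Log2 array intensity of OsbZIP49 in leaf (left) and root (right), 1 point per array, filled for nutrient-sufficient and open for nutrient-deficient, with the mean and SD of 3 arrays beside each group. The 3 deficient LYP9 leaf arrays, 6.22 to 6.52, lie below all deficient leaf arrays of 9311 and PA64s, and the genotypes overlap in sufficient leaves and in roots.

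OsbZIP49 was the 1 member of 15 called against the mid-parent in deficient leaves, where 0.906% of all probe sets were called, and the 1 member called below both parents, where 0.0117% of all probe sets were; it was chosen for this, and nothing is read from these counts. The mid-parent call was lost without LYP9 deficient array 2. The call against 9311 was lost in 5 of 25 alternatives: in the fit over all 36 arrays, and without 9311 deficient 1 or 3 or LYP9 deficient 2 or 3. The call against PA64s was lost in 0 of 25. Because OsbZIP49 was chosen for its hybrid level, these calls and their losses describe its values and support nothing. In sufficient leaves no member was called by limma (0.822% of all probe sets were), with 1 member, OsbZIP41 at -0.27 ± 0.13, at an unadjusted p under 0.05. In roots no member was called in the sufficient state (0.72%) or the deficient state (0.513%), and none had an unadjusted p under 0.05 in either. The widest root deviations were -0.54 ± 0.28 for OsbZIP06 in the deficient state and -0.27 ± 0.22 for OsbZIP50 in the sufficient state. By group means, LYP9 lay between its parents for 12 of 18 members in sufficient leaves, 9 in deficient leaves, 13 in sufficient roots and 9 in deficient roots. These positions were not tested, and the leaf counts take in OsbZIP06, OsbZIP11 and OsbZIP79, which did not pass the leaf filter. The share over all probe sets was not counted, so nothing is read from them.

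For the members that separated the parents, LYP9 leaves lay between them. These members were picked because the parents differed in the same arrays, which makes a hybrid level between them likely in advance. The share over all probe sets that separated the parents was not counted, so nothing is read from this position. The median of OsbZIP08 over 6 leaf arrays was 8.03 in LYP9, 7.60 in 9311 and 8.42 in PA64s, and that of OsbZIP37 was 9.35, 9.50 and 8.63 in the same order. LYP9 minus the mid-parent over both states was -0.06 ± 0.17 for OsbZIP08 and 0.09 ± 0.13 for OsbZIP37, and neither was called. A difference not called does not show that LYP9 was at the mid-parent.

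**Figure D5:**
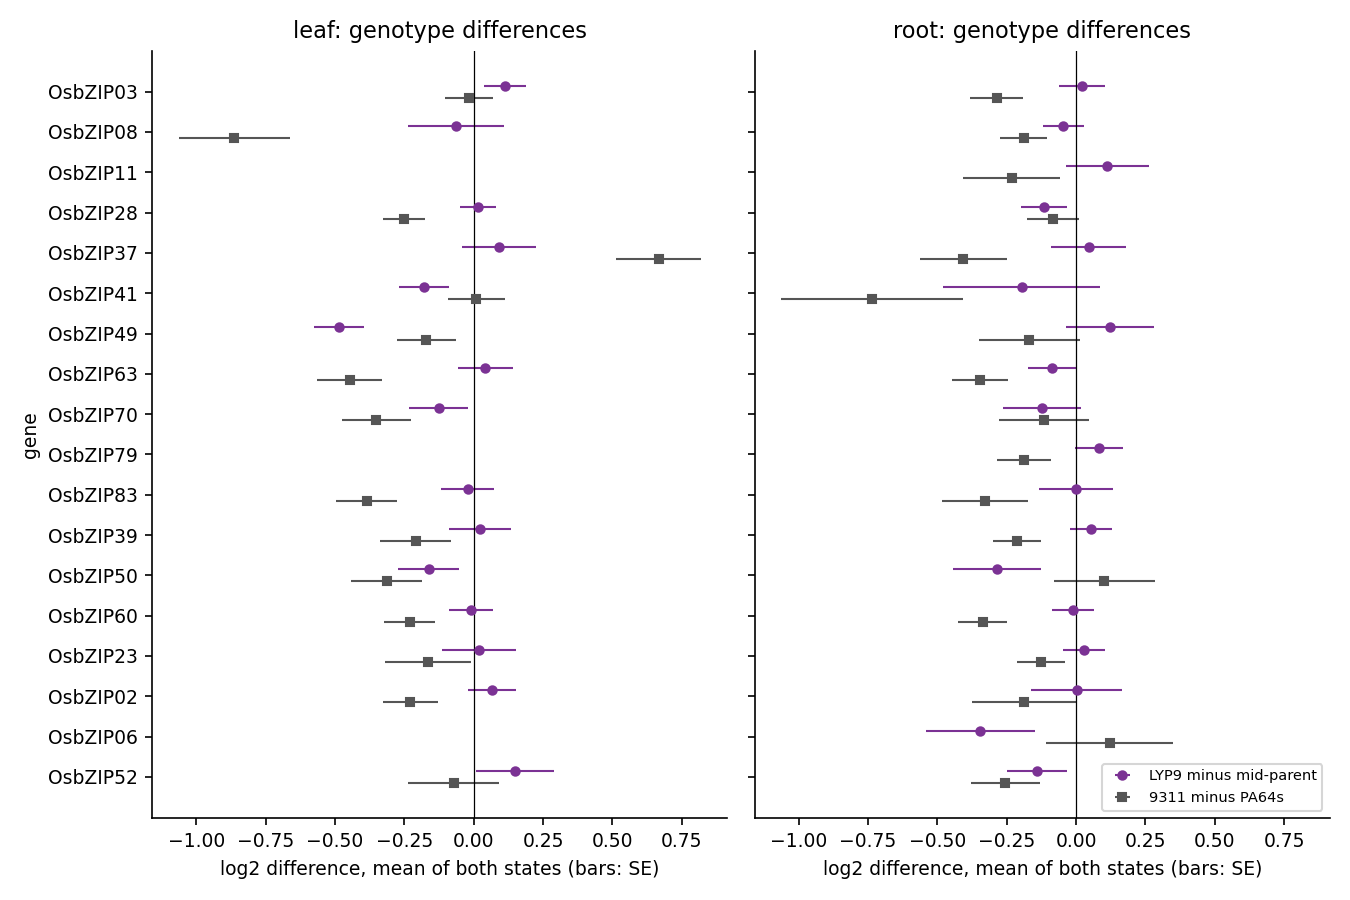
LYP9 minus mid-parent (circles) and 9311 minus PA64s (squares) log2 differences, averaged over both nutrient states, with the standard error of the limma fit, for each bZIP gene in leaf (left) and root (right). OsbZIP49 has the lowest leaf circle, at -0.49, and most squares lie left of 0, with OsbZIP37 in leaf at 0.67 to the right.

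The members whose 12 group means were most like those of OsbZIP49 were OsbZIP37 with a Pearson r of 0.919, OsbZIP70 with 0.871 and OsbZIP23 with 0.841. These r values describe group means that share the leaf and root split. Over the 6 leaf groups alone r was 0.778, 0.948 and 0.554 for these genes, and over the 6 root groups 0.934, -0.491 and 0.974.

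Partner genes of the bZIP pathways were counted by list, averaged over genotypes. Of all probe sets, 24.4% were higher and 13.5% lower in sufficient leaves, and 10.1% higher and 7.76% lower in sufficient roots. The lists hold few genes, and nothing particular to a list is read from the counts below. In sufficient leaves 1 of 10 SAPK kinases was called higher (SAPK3 by 0.58 ± 0.08) and 5 lower (SAPK1 most, by -0.73 ± 0.16). In sufficient roots 1 was higher (SAPK3 by 0.61 ± 0.12) and 2 lower (SAPK1 by -0.80 ± 0.09). Of the 6 dehydration proteins, bZIP targets in abscisic acid signalling, 4 were higher in sufficient leaves, RAB21 most by 3.19 ± 0.47, and none of the 5 tested was called in root, where none had an unadjusted p under 0.05 (limma). The 1 measured abscisic acid receptor, PYL11, was higher in sufficient roots and not called in leaf, with 0.34 ± 0.09 in root, and its response differed between leaf and root by -0.31 ± 0.10 (limma, adjusted p = 0.0371).

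Of the genes for chaperones and the sensor of the endoplasmic reticulum, 2 of 13 tested were higher and 1 lower in sufficient leaves, and 5 of 15 higher and 1 lower in sufficient roots. The lower one was the sensor IRE1 in both, by -0.25 ± 0.08 in leaf and -0.24 ± 0.07 in root. In leaf 4 of the 13 were lower in 9311 than in PA64s, where 6.44% of all probe sets were, and none was higher, the largest being the disulfide isomerase gene PDIL5-2 at -0.95 ± 0.11 (limma, adjusted p = 5.02e-06). Of the 5 NPR1 family genes tested, 1 was called in each tissue. It was NH1, the rice co-activator of TGA factors, which fell in sufficient leaves by -0.34 ± 0.12 and rose in sufficient roots by 0.52 ± 0.14, and the response differed between leaf and root by -0.86 ± 0.19 (limma, adjusted p = 0.0019). Among 7 genes for 14-3-3 proteins, 1 was lower in sufficient leaves and 2 were higher in sufficient roots.

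Of the GH3 genes that passed the filter, 1 of 6 was higher and 1 lower in sufficient leaves (GH3-8 by 0.65 ± 0.14 and GH3-5 by -0.48 ± 0.16), and 1 of 7 higher and 1 lower in sufficient roots (GH3-6 by 0.33 ± 0.06 and GH3-5 by -0.70 ± 0.11). The list takes in genes by their GH3 number, not by substrate, and GH3-5 is also listed as JAR1. Which of these genes OsbZIP49 acts on was not tested. GH3-2 was the 1 GH3 gene called against the mid-parent in leaf over both states, where 1.22% of all probe sets were called, at -0.58 ± 0.12 (limma, adjusted p = 0.0229). It averaged 5.84 ± 0.20 in LYP9, 5.99 ± 0.09 in 9311 and 6.90 ± 0.20 in PA64s in sufficient leaves, and 5.89 ± 0.19, 6.46 ± 0.47 and 6.46 ± 0.27 in the same order in deficient leaves (SD, n = 3 each). It was lower in LYP9 than in PA64s by -0.81 ± 0.14 (limma, adjusted p = 0.00239) and was not called against 9311. In sufficient leaves 9311 was also lower than PA64s, by -0.91 ± 0.20 (limma, adjusted p = 0.00882). The LYP9 levels of GH3-2 lay near the leaf filter level, where background light can make up part of the intensity. Its calls were not tried under the alternatives. All 6 GH3 genes tested were lower in leaf than in root, where 37.5% of all probe sets were. The filter used the mean over both tissues. Which of these genes passed it only through their root level was not checked, so nothing is read from this count.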

How the data were processed

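The authors deposited one table of linear array intensities, 57381 probe sets by 36 arrays, with a floor of 1 and a highest value of 24460.59. RMA and affy appear in the submitters' processing notes, without a role or version. Scaling and genome build are not given in the sources used here. For the tests, log2 of the deposited intensities was taken, without scaling and with no correction for background, so differences of dim genes are uncertain in size. Controls and reporters (187) were dropped. In the platform annotation 22436 probe sets carry 1 gene, 95 carry several and 34663 are not listed. No positions are printed, because the build is not known. Several probe sets, those of OsbZIP08, OsbZIP11, OsbZIP37, OsbZIP39 and OsbZIP60, have names that mark possible binding to related transcripts. Background signal per array and batches were not analysed here, and the labels give no batch.

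Groups come from the labels of genotype, tissue and nutrient state. Leaf and root were fitted apart, 18 arrays each, with lmFit and eBayes of limma 3.58.1 in R 4.3.3 (12 residual degrees of freedom; prior 3.87 in leaf and 3.85 in root), 2-sided. Comparisons between tissues used all 36 arrays, with a filter level of 5.798. A pairing of leaf with root arrays was neither checked nor modelled, and the p-values of those comparisons treat the arrays as independent. Adjusted p-values are Benjamini-Hochberg over 34316 probe sets; the code was checked on simulated data. Tables were joined in Python 3.11.15 with pandas 2.3.3. Precision is limited by having 3 arrays in a group.

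The members, the gene lists and the tests were chosen with earlier results of these data known. By the rule for named genes, each comparison names OsbZIP49, up to 6 called members with the largest rise and 6 with the largest fall, and members called outside the parental range. It adds the 3 highest and lowest members of a tissue, the 3 most like OsbZIP49, and the largest called rise and fall of each partner list. PYL11, PORA and NAS1 were named as list or marker genes of largest change; other members, values per array and GH3-2 between LYP9 and PA64s follow from those. Where a member not called is given, it was chosen after its values were seen.

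Arrays of the same replicate number deviated together (r over 0.1) in 33 of 54 pairs, with r from -0.2181 to 0.6165. All pairs of a comparison did so for hybrid and parents in sufficient leaves and for LYP9 and 9311 in deficient leaves and in deficient roots. The labels give no meaning to the number. Alternatives were quantile normalization, median centring, another choice of probe set, no filter, a trended and robust eBayes, all arrays in one fit, a replicate block, and leaving out each array.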

Additional observations from a re-analysis of the deposited data

Results flagged for a closer look

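The nutrient response, sufficient minus deficient averaged over genotypes, differed between leaf and root for 8 members by limma's test of the difference itself. The difference, leaf minus root on the log2 scale, was 0.53 ± 0.18 (SE) for OsbZIP02, -0.32 ± 0.10 for OsbZIP28, -0.73 ± 0.18 for OsbZIP37 and -2.53 ± 0.29 for OsbZIP41. It was -0.57 ± 0.18 for OsbZIP49, -1.62 ± 0.17 for OsbZIP52, 0.29 ± 0.10 for OsbZIP60 and -0.98 ± 0.17 for OsbZIP70. Only OsbZIP52 was called in opposite directions in the separate tissues, lower in sufficient leaves and higher in sufficient roots. The difference between 9311 and PA64s also differed between leaf and root for OsbZIP37, by 1.07 ± 0.23, with 9311 higher in leaf and no call in root.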

How the results depend on the processing

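Of 68 calls of a member in a comparison, 54 held under every alternative tried, 14 were lost under some and 0 changed sign. The 54 include the leaf against root calls of OsbZIP06, OsbZIP11 and OsbZIP79, which had to differ. Another choice of probe set could change the calls of OsbZIP11 only, the one member with more than 1 probe set. The hybrid values of OsbZIP49 are a description and are not among the 68. Counts of members called stayed within 1.5 times under the alternatives that kept all arrays, with these exceptions. Quantile normalization gave 2 in 9311 roots and 2 in LYP9 roots, against 1 in each, for the nutrient states. All 36 arrays in one fit gave 2 in 9311 roots, against 1, and 4 in PA64s roots, against 2. The replicate block gave 2, against 1, for the parental difference between tissues. The cause was not tested. Over all probe sets, the share of nutrient calls that were higher in the sufficient state moved with scaling: in leaf it was 70% in LYP9, 66.7% in 9311 and 64.9% in PA64s as deposited, 45.8%, 47.9% and 46.1% after quantile normalization, and 55.9%, 55.7% and 49.6% after median centring, in the same order. Averaged over genotypes it was 64.4%, 44.2% and 48.4% in the same order of scalings, and for the leaf against root response 66%, 51.6% and 54.5%. Scaling moved the median of all probe sets by less than 0.1.

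Leaving out single arrays gave counts for the nutrient states of 6 to 6 in 9311 leaves, 3 to 5 in LYP9 leaves, 3 to 5 in PA64s leaves and 8 to 10 averaged over genotypes, and in roots 0 to 2 in 9311, 0 to 3 in LYP9, 1 to 4 in PA64s and 7 to 7 averaged. The PA64s leaf count was 3 without PA64s sufficient 1 or PA64s deficient 2. The root counts for 9311 were 0 without 9311 sufficient 2 or 9311 deficient 1 or 3, and 2 without 9311 sufficient 3 or LYP9 deficient 2 or 3. For LYP9 roots the count was 0 without LYP9 deficient 1, 3 without LYP9 deficient 3, and 2 without 9311 sufficient 3, 9311 deficient 3 or PA64s deficient 1. For PA64s roots it was 1 without PA64s deficient 2, and 4 without 9311 sufficient 3 or LYP9 sufficient 3. For 9311 against PA64s the leaf count was between 3 and 6, being 3 without 9311 sufficient 3, 9311 deficient 2 or PA64s deficient 2. The root count was between 0 and 4: it was 0 without 9311 deficient 1 or PA64s deficient 2, 1 without 9311 sufficient 1 or 2, 9311 deficient 2 or 3, PA64s sufficient 2 or PA64s deficient 3, and 4 without 9311 sufficient 3 or PA64s deficient 1. The count was 0 to 0 for LYP9 against the mid-parent in sufficient leaves and in both root states. In deficient leaves that count was 0 to 1, being 0 without LYP9 deficient 2. Between tissues 17 to 17 members were called, 6 to 8 for the response and 1 to 2 for the parental difference, being 2 without LYP9 leaf sufficient 1 or PA64s leaf sufficient 1. LYP9 minus the mid-parent of OsbZIP49 was between -0.53 and -0.44 in leaf, between 0.04 and 0.22 in root, and between -0.84 and -0.69 in deficient leaves. Against 9311 and PA64s in deficient leaves it was between -0.73 and -0.58 and between -1.01 and -0.79.

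Adding the replicate number as a block, counts for the nutrient states were 6, 6 and 7 in 9311, LYP9 and PA64s leaves and 1, 1 and 3 in roots, and 11 and 7 averaged over genotypes. The block gave 5 in leaf and 3 in root for 9311 against PA64s, 0 in sufficient and 1 in deficient leaves for LYP9 against the mid-parent and 0 in roots. Between tissues it gave 17, 10 for the response, and 2, against 1, for the parental difference. In sufficient leaves, where all numbered arrays of hybrid and parents deviated together, it changed no call. The labels do not say that the number marks a pairing. The 3 arrays per group, an unknown scaling and background light near the filter level limit all of these results. The averages over genotypes, the alternatives for the parental difference between tissues and the OsbZIP49 values in deficient leaves alone were chosen after seeing the data.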
